A study of Mus musculus with 20 samples.

Results

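Interferon-stimulated genes are the genes that cells switch on when they sense an interferon, and 43 of them, spread over 12 functional roles, were described in CD4+ iNKT1 cells of the mouse. The members were the rows of the expression table whose gene name was on a fixed list, 43 of 53714 genes, and each name matched 1 row. iNKT cells are innate-like T cells whose invariant antigen receptor recognises glycolipids presented by CD1d, and the iNKT1 subset expresses the transcription factor T-bet and is known as a source of interferon-γ. The question asked of the data was how the members differed between organs of 1 strain, between the 2 strains in liver, and between the 2 ways of preparing liver cells.

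RNA-seq was available for 20 libraries in 7 groups, all from female mice 8 to 12 weeks old, with no treatment and no engineered allele given. The wild-type C57/BL6N mice (BL6) gave 3 libraries each from thymus, blood, spleen, liver_H and liver_C. BALB/c mice gave 3 libraries from liver_H and 2 from liver_C. For liver_H, perfused liver was held for 30 min at 37 °C in an enzyme mix (collagenase D with DNase I). For liver_C, liver was meshed in the cold without enzymes, as were spleen and thymus. Both kinds of liver suspension passed a Percoll gradient at 20 °C. Cells were sorted as tetramer-binding CD3+ CD4+ B220- cells that were CXCR3+ CD138- in liver and spleen. In thymus CD122 stood in for CXCR3 and CD138 was left out, so the gate and the organ cannot be told apart for thymus. Spleen and liver libraries were pools of 4 to 6 mice. The pool sizes of thymus and blood, and the preparation and gate of blood, are not given in the sources used here. Each liver was split into a digested and a cold part, but which liver_H and liver_C libraries share livers is not given. Replicate numbers below are names in accession order and values are listed in that order. The labels do not say which libraries share mice, so that p-values measure the spread between these libraries. Library numbers, as in the sample titles, fell into 3 ranges, and what a range stands for is not given. In replicate order these were 1, 3 and 3 in thymus and blood and 2, 3 and 3 in spleen and BL6 liver_C. Both liver_H groups held 1, 1 and 2, and BALB/c liver_C held 1 and 2. BL6 liver_H and liver_C thus share range 2 only, as do the strains in liver_C.

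Each library held 9336861 to 22879834 reads on genes. Normalized read counts, meaning reads divided by a size factor of the library, are used throughout. The iNKT1 markers, 12 genes, summed to 37692 to 43921 in thymus, 54853 to 59534 in blood, 42746 to 46140 in spleen and 53943 to 66973 in the liver groups. Tbx21, which encodes T-bet, and Zbtb16, which encodes PLZF, were read in every library, whereas Trav11, the segment of the invariant receptor chain, was listed at 0 in all 20. The 8 markers of double-positive thymocytes, the immature stage most common in thymus, summed to 10641 to 23909 in thymus, 252 to 2727 in blood, 230 to 361 in spleen and 91.0 to 105 in BL6 liver_C. Of these 8 markers, 7 were called higher in thymus than in spleen, 7 than in liver_C and 6 than in blood, and their part in the thymus results below was not tested. The 14 markers of B and plasma cells summed to 1856 to 2453 in thymus, 2420 to 2950 in blood, 3385 to 4619 in spleen and 2593 to 2749 in BL6 liver_C. Of the 13 that were tested, 7 were called lower in thymus than in spleen, 2 lower in blood than in spleen and 5 higher in spleen than in liver_C, and 4 of the 11 tested iNKT1 markers were called lower in thymus than in spleen. Over liver_C 5 iNKT1 markers were called lower in thymus, and over blood 5. Of the 6 tested CD8 T and NK cell markers, 4 were called higher in thymus over each other organ and 1 lower over spleen. Cd8a and Cd8b1 are on both this list and that of double-positive thymocytes. Of the B and plasma cell markers, 3 were called higher and 1 lower in thymus over liver_C, and 1 higher and 1 lower over blood. The part of all these markers in the organ comparisons was not tested. In bulk RNA, fewer expressing cells and less RNA per cell cannot be told apart.

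Type I interferons signal through a receptor of IFNAR1 and IFNAR2, and the kinases JAK1 and TYK2 then activate a complex that holds STAT2 and IRF9 and binds a promoter element called ISRE. Interferon-γ signals through IFNGR1 and IFNGR2 and the kinases JAK1 and JAK2, and the factors they activate bind an element called GAS. Many of the genes are expressed at a basal level in T cells without infection, and the IFIT, OAS and ISG15 families are classically read as type I interferon genes, the guanylate-binding proteins (GBP) and immunity-related GTPases (IRG) as interferon-γ genes, although most respond to both.

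Some promoters of the members carry these letters, and 8 are shown as examples of ISRE letters alone, GAS letters alone and both, from members called between organs or strains and from Trim30a beside Trim30d. The windows of the called members Oasl1, Oasl2, Irf7 and Ifi44 held neither, and those of Irf1, Ifit2 and Isg20 held GAS letters only. Each line gives 160 bases upstream of the RefSeq transcription start on GRCm38.p6, 5′ to 3′ on the strand of the gene, with every match to ISRE letters (GAAA, then NN for any bases, then GAAA) or GAS letters (TTCNNNGAA) on either strand in capitals.
Ifit3: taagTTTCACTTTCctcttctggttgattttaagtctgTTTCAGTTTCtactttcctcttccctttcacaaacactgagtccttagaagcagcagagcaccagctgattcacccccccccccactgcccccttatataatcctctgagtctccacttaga
Ifit1: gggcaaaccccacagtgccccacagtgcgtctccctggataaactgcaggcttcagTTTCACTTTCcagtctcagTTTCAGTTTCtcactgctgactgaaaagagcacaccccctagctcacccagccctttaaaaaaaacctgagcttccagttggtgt
Bst2: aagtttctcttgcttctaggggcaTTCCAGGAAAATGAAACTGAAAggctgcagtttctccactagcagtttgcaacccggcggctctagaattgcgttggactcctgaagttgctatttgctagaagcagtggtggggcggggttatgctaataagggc
Irf1: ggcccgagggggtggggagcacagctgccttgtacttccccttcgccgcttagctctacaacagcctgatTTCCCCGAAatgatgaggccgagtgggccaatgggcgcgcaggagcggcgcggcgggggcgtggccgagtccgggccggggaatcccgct
Igtp: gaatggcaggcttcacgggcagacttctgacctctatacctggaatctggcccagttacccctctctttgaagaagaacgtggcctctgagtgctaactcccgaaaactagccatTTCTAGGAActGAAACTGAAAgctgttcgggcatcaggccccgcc
Gbp7: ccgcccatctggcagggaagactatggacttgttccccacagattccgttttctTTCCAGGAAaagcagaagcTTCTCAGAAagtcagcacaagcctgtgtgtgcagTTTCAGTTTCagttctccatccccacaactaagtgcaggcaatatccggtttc
Trim30d: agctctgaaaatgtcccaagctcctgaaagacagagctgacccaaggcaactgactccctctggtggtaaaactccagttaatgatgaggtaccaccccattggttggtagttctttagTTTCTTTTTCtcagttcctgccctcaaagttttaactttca
Trim30a: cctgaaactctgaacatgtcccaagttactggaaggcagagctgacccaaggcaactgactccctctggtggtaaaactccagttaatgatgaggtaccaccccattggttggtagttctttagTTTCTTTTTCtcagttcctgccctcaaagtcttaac
The stretch of Ifit3 covers chr19:34583369-34583528 on the plus strand and that of Ifit1 chr19:34640729-34640888 on the plus strand. The stretch of Bst2 covers chr8:71537473-71537632 on the minus strand, that of Irf1 chr11:53769854-53770013 on the plus strand and that of Igtp chr11:58199396-58199555 on the plus strand. The stretch of Gbp7 covers chr3:142530176-142530335 on the plus strand, that of Trim30d chr7:104507850-104508009 and that of Trim30a chr7:104465194-104465353, both on the minus strand. The Ifit1 and Ifit3 stretches hold 2 ISRE matches each and no GAS match, the Irf1 stretch holds 1 GAS match and no ISRE match, and Igtp, Gbp7 and Bst2 hold both, in Bst2 as 1 overlapping run of 1 GAS and 2 ISRE matches. Trim30d and Trim30a share the same ISRE letters. A RefSeq window from 250 bases before to 50 after the start was found for 33 of the 43 members, and 20 of these 33 windows (60.6%) held ISRE letters, against 943 of 27025 genes (3.49%). GAS letters were in 8 of 33 windows (24.2%), against 2288 of 27025 genes (8.47%). For members the window nearest the annotated gene start was used, and for all genes the first window listed, so the 2 shares rest on unlike choices. A match is a description of the letters only.

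Levels of the members per kilobase of transcript, averaged over the 20 libraries, spanned 9.87 normalized reads per kb for Oas2 to 896 for Igtp. After Igtp, an immunity-related GTPase that acts on pathogen vacuoles, came Dtx3l (563 per kb), an E3 ubiquitin ligase that pairs with Parp9, Irf1 (561 per kb), a transcription factor induced by interferon-γ, Trim30a (374 per kb) and Gbp2 (373 per kb). At the low end stood Oas2, Ifi44 (11.8 per kb) and Oasl2 (12.2 per kb). Single libraries spread most within BALB/c liver_C, where the median coefficient of variation over the members was 22.5%, and least within spleen, where it was 11.1%. BALB/c liver_C has 2 libraries, of 9591844 and 22879834 reads and of unlike ranges, and the other groups have 3, so this order is not like for like.

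**Figure D1:**
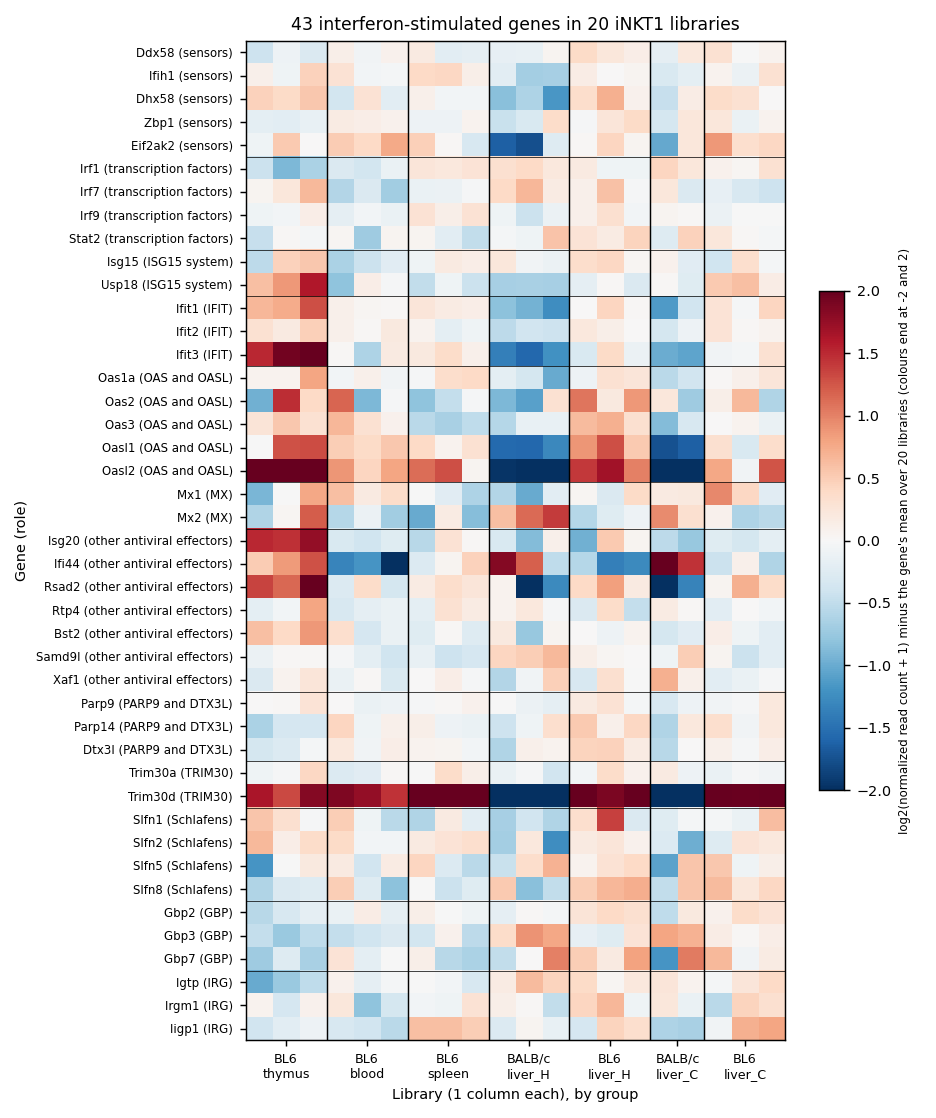
Heat map of the 43 members (rows, grouped by role) in the 20 libraries (columns, by group), coloured by log2(normalized read count + 1) minus the mean of the gene over all libraries, with colours ending at -2 and 2. The thymus columns are red in the Ifit3, Oasl2 and Isg20 rows and the BALB/c columns are blue in the Ifit3, Oasl1, Oasl2 and Trim30d rows.

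Over the 4 BL6 organs (thymus, blood, spleen and liver_C) most called antiviral effectors were highest in thymus, whereas the called GTPases and Irf1 were lowest there or, for Iigp1, low in thymus and blood. A moderated F test of limma called 18 of the 43 members at an adjusted p under 0.05, 41.9% of them, against 15.6% of the 13604 genes tested. The organ with the highest mean was thymus for 22 members (51.2%), against 31.4% of all genes tested, and liver_C for 12 members (27.9%), against 19.3%. Blood was the organ with the lowest mean for 17 members (39.5%), against 23.8% of all genes tested, and liver_C for 3 (6.98%), against 21.3%. By the labels, blood replicates 2 and 3 came from fewer sorted cells than any thymus, spleen or BL6 liver_C library. The part of cell number in the organ results was not tested. The thymus comparisons below share the same 3 thymus libraries.

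Ifit3, Oasl2 and Isg20 were the members that rose most in thymus over spleen and over liver_C, while the other IFIT genes rose less. Ifit3 (ENSMUSG00000074896, chr19:34583531-34588731), whose human counterpart strengthens the RNA binding of IFIT1, had 582, 774 and 1029 normalized reads in thymus, 206, 132 and 229.8 in blood, 233, 263 and 218 in spleen and 194, 199 and 252 in BL6 liver_C. All 3 thymus libraries stood above every library of the other organs. The log2 fold change of Ifit3 in thymus was 1.70 ± 0.23 (SE, adjusted p = 3.87e-05) over spleen, 1.86 ± 0.23 (SE, adjusted p = 1.36e-05) over liver_C and 2.07 ± 0.23 (SE, adjusted p = 5.31e-06) over blood. Ifit1 (chr19:34640871-34650009), which binds viral RNA without host-type cap methylation, had 668, 708 and 1036 normalized reads in thymus, 456, 436 and 429 in blood, 499, 471 and 463 in spleen and 513, 414 and 569 in liver_C, and its thymus libraries also lay above all others. The change of Ifit1 in thymus, on the log2 scale, was 0.72 ± 0.16 (SE, adjusted p = 0.00492) over spleen, 0.67 ± 0.16 (SE, adjusted p = 0.00933) over liver_C and 0.84 ± 0.16 (SE, adjusted p = 0.00202) over blood. The call over liver_C was lost without thymus replicate 3 (adjusted p = 0.0764). Ifit2, the member of the family with the highest mean level, was called over spleen only, at 0.39 ± 0.12 (SE, adjusted p = 0.0334), with 988, 902 and 1117 normalized reads in thymus and 842, 696 and 751 in spleen, and this call was lost without any 1 of thymus replicates 1 and 3 or spleen replicates 2 and 3 (adjusted p = 0.066 to 0.162). Ifit3 has a close copy, Ifit3b, and reads shared between them may have been split.

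The OAS and OASL genes followed in part. Oasl2 (chr5:114896936-114912234), an oligoadenylate synthetase-like protein, had 155, 259.6 and 275 normalized reads in thymus, 67.2, 48.5 and 62.6 in blood, 78.7, 88.8 and 37.4 in spleen and 62.2, 34.1 and 86.9 in liver_C, with no overlap between thymus and the rest. On the log2 scale Oasl2 in thymus stood at 1.78 ± 0.36 (SE, adjusted p = 0.00191) over spleen, 1.95 ± 0.36 (SE, adjusted p = 0.000916) over liver_C and 1.90 ± 0.36 (SE, adjusted p = 0.00156) over blood. All 3 calls were lost when the BALB/c libraries joined the fit. Oas3, which makes the oligoadenylates that activate RNase L, had 832, 1019 and 868 normalized reads in thymus, 1106, 868 and 741 in blood, 480.2, 444 and 493 in spleen and 700.4, 732 and 636 in liver_C. Spleen was the low organ for Oas3: the log2 fold change was 0.93 ± 0.14 (SE, adjusted p = 0.000153) in thymus over spleen and 0.92 ± 0.14 (SE, adjusted p = 0.00107) in blood over spleen. Oas1a, Oas2 and Oasl1 did not pass the test in any thymus comparison, and Oas1a may share reads with Oas1g.

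Of the 7 other antiviral effectors, 3 were called higher in thymus over spleen and 3 over liver_C, while Rtp4, Samd9l and Xaf1 were called in no comparison. Isg20 (chr7:78913424-78920396), an RNA exonuclease, had 380.2, 369 and 453 normalized reads in thymus, 107, 101 and 113 in blood, 90.1, 164 and 136 in spleen and 112, 104 and 116 in liver_C. The thymus libraries of Isg20 were all above the highest library of any other organ, at a log2 fold change of 1.65 ± 0.29 (SE, adjusted p = 0.00046) over spleen, 1.84 ± 0.29 (SE, adjusted p = 0.000165) over liver_C and 1.89 ± 0.29 (SE, adjusted p = 0.000173) over blood. Rsad2, which encodes viperin, had 291, 253 and 475 normalized reads in thymus, 93.1, 145 and 88.8 in blood, 127, 144 and 134 in spleen and 117, 185 and 146 in liver_C. Thymus Rsad2 had a log2 fold change of 1.27 ± 0.26 (SE, adjusted p = 0.00188) over spleen, 1.15 ± 0.26 (SE, adjusted p = 0.00482) over liver_C and 1.61 ± 0.26 (SE, adjusted p = 0.000304) over blood. The calls over spleen and liver_C were lost when the BALB/c libraries joined the fit. Usp18, the protease that removes ISG15 from proteins and dampens the type I receptor, had 359, 432 and 725 normalized reads in thymus, 135, 259.8 and 234 in blood, 168, 222 and 176 in spleen and 341, 361 and 264 in liver_C. The values of Usp18 in thymus and liver_C touched, since the lowest thymus library (359) was under the highest of liver_C (361). The test called it higher in thymus over spleen (log2 fold change 1.36 ± 0.25 SE, adjusted p = 0.000763) and over blood (log2 fold change 1.25 ± 0.25 SE, adjusted p = 0.00233) but not over liver_C (log2 fold change 0.60 ± 0.25 SE, adjusted p = 0.139). Isg15 itself, the ubiquitin-like modifier, had 153, 305 and 322 normalized reads in thymus and 207, 249 and 242 in spleen and was not called in any comparison.

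Ifi44 differed most between thymus and blood. It had 74.5, 95.1 and 127 normalized reads in thymus, 20.1, 22.5 and 9.34 in blood, 42.6, 54.3 and 71.8 in spleen and 38.5, 55.8 and 34.1 in liver_C, with blood the lowest organ. The log2 fold change of Ifi44 was 2.5 ± 0.39 (SE, adjusted p = 0.000266) in thymus over blood and -1.70 ± 0.39 (SE, adjusted p = 0.0171) in blood over spleen. Bst2 (chr8:71534255-71537456), which encodes tetherin, had 270.3, 233 and 322 normalized reads in thymus, 223, 140.3 and 161 in blood, 150.0, 180.1 and 149 in spleen and 193, 168 and 153 in liver_C. All thymus libraries of Bst2 exceeded those of the other organs, with a log2 fold change of 0.78 ± 0.19 (SE, adjusted p = 0.00975) over spleen, 0.67 ± 0.19 (SE, adjusted p = 0.0263) over liver_C and 0.67 ± 0.19 (SE, adjusted p = 0.0317) over blood. The 3 calls of Bst2 were lost without thymus replicate 3. Over liver_C and blood they were also lost without thymus replicate 1, liver_C replicate 2 or 3, or blood replicate 2 or 3 (adjusted p = 0.0537 to 0.16 over these cases). Bst2 also marks plasmacytoid dendritic cells, whose 8 markers, Bst2 included, summed to 1258 to 2238 in thymus, 1618 to 1997 in blood, 2423 to 2940 in spleen and 1650 to 1676 in liver_C. Of the 5 that were tested, Bst2 and Ly6d were called higher in thymus over each other organ and Tcf4 over liver_C, while Ccr9 was called lower over spleen and Irf8 over liver_C and blood. Ly6d had 87.2, 269 and 279 normalized reads in thymus, 30.7, 14.7 and 8.41 in blood, 26.2, 13.6 and 6.89 in spleen and 0.55, 0 and 0 in liver_C. Siglech, on the same list but not among the 5 tested, was read at 0, 9.14 and 0 in thymus. The part of such cells in the Bst2 result was not tested.

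**Figure D2:**
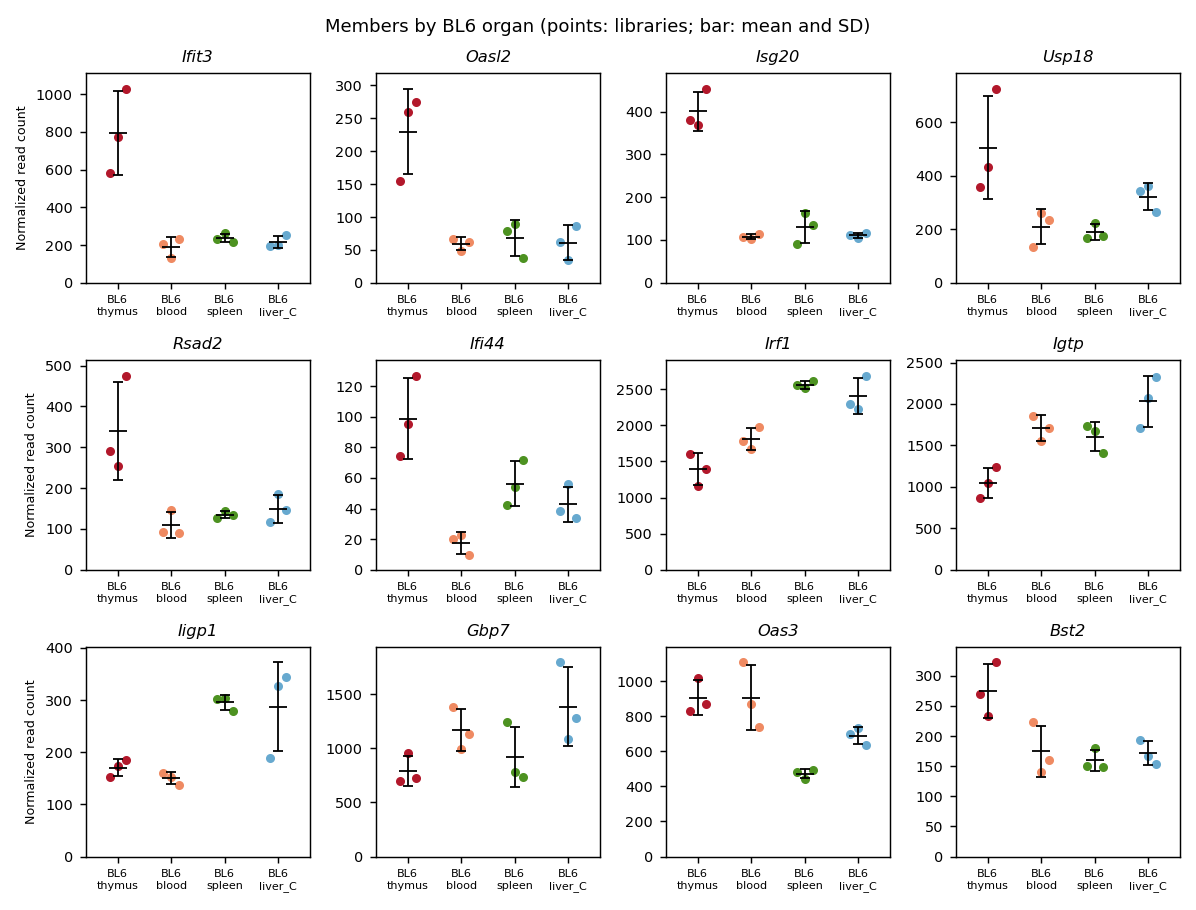
Normalized read counts of 12 members in BL6 thymus, blood, spleen and liver_C (points are libraries, the bar and whiskers are mean and SD, 3 libraries a group). The thymus points of Ifit3, Oasl2, Isg20 and Bst2 lie above every other point of their panel, and those of Irf1 and Igtp lie below.

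The members that fell in thymus were led by Irf1 and the GTPases. Irf1 (ENSMUSG00000018899, chr11:53770014-53778374) had 1608, 1163 and 1400.5 normalized reads in thymus, 1777, 1675 and 1977 in blood, 2554, 2514 and 2614 in spleen and 2297, 2222 and 2689 in liver_C. The order of its means was spleen, liver_C, blood and thymus from high to low, and every thymus library was under every library of the other organs. Irf1 had a log2 fold change of -0.89 ± 0.13 (SE, adjusted p = 4.95e-05) in thymus over spleen and -0.80 ± 0.13 (SE, adjusted p = 0.000176) over liver_C, and -0.39 ± 0.13 (SE, adjusted p = 0.0531) over blood, where it was not called. Igtp (chr11:58199556-58207591) had 868, 1041 and 1235 normalized reads in thymus, 1859, 1549.9 and 1709 in blood, 1738, 1678 and 1402 in spleen and 1709, 2074 and 2320.0 in liver_C, again with thymus below all others. In thymus Igtp had a log2 fold change of -0.62 ± 0.14 (SE, adjusted p = 0.00536) over spleen, -0.96 ± 0.14 (SE, adjusted p = 0.000107) over liver_C and -0.71 ± 0.14 (SE, adjusted p = 0.00261) over blood. Part of its exons overlaps those of Irgm2 on the same strand.

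The 3 guanylate-binding proteins, which coat and break open pathogen vacuoles, were all called lower in thymus than in liver_C and none was called against spleen or blood. Gbp7 (chr3:142530342-142550149) had 695, 953 and 730.1 normalized reads in thymus and 1793, 1083 and 1279 in liver_C, without overlap, and a log2 fold change of -0.79 ± 0.21 (SE, adjusted p = 0.0171). The log2 fold change over liver_C was -0.68 ± 0.16 (SE, adjusted p = 0.00644) for Gbp3 and -0.59 ± 0.13 (SE, adjusted p = 0.00292) for Gbp2. The call of Gbp7 was lost without thymus replicate 1 or 3 or liver_C replicate 1 (adjusted p = 0.0659 to 0.112). Iigp1, an immunity-related GTPase, had 153, 173 and 186 normalized reads in thymus, 159, 153 and 137 in blood, 302, 305 and 279 in spleen and 189.8, 328 and 344 in liver_C, so that the 3 spleen libraries exceeded all thymus and blood libraries. The log2 fold change of Iigp1 was -0.79 ± 0.22 (SE, adjusted p = 0.0215) in thymus over spleen and -0.71 ± 0.22 (SE, adjusted p = 0.0446) over liver_C. These calls were lost without thymus replicate 1 or 2 or spleen replicate 1 or 2 over spleen, and without any thymus library or liver_C replicate 2 or 3 over liver_C (adjusted p = 0.0506 to 0.202). With the range of library numbers as a block the call over liver_C was lost as well (adjusted p = 0.0501). The third of these GTPases, Irgm1, had 139, 105 and 142 normalized reads in thymus and 128, 126 and 163 in spleen and was not called.

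Counted over the whole list, thymus over spleen gave 13 of 43 calls, 9 higher and 4 lower, against 13.4% of all genes tested (7.71% higher, 5.73% lower). Thymus over liver_C gave 15 calls, 7 higher and 8 lower, against 12.5% (6.2% higher, 6.27% lower). Thymus over blood gave 11 calls, 9 higher and 2 lower, against 10.5% (5.05% higher, 5.43% lower). By role, 3 of 3 IFIT genes were higher in thymus than in spleen, while 0 of 5 sensors and 0 of 4 Schlafens were called in limma in any of the 3 comparisons. The median log2 fold change over the members was 0.08 over spleen, 0.14 over liver_C and 0.18 over blood, against -0.01, 0.01 and 0.01 over all genes tested. The libraries did not overlap for 20 members over spleen, 22 over liver_C and 17 over blood, against 27%, 27.4% and 27.1% of all genes tested. Every called member kept its direction in each range of library numbers that held both groups, which over spleen and liver_C was range 3 only. This is no separate check, because the calls came from these same libraries.

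Among the smaller calls in thymus, Irf7, the transcription factor that amplifies type I interferon, had 821, 922 and 1241 normalized reads in thymus, 529, 649 and 488 in blood, 722, 728 and 781 in spleen and 704, 633 and 593 in liver_C. Irf7 in thymus had a log2 fold change of 0.61 ± 0.17 (SE, adjusted p = 0.0191) over liver_C and 0.83 ± 0.17 (SE, adjusted p = 0.00245) over blood. The call over liver_C was lost without thymus replicate 3 or liver_C replicate 3 (adjusted p = 0.0852 to 0.134). Exons of Irf7 overlap those of Phrf1 on the other strand. Parp14, a mono-ADP-ribosyltransferase, had 1654, 2047 and 2048 normalized reads in thymus, 3458, 2430.5 and 2754 in blood and 3255, 2457 and 2979 in liver_C, below both in all thymus libraries. Parp14 in thymus had a log2 fold change of -0.59 ± 0.15 (SE, adjusted p = 0.0108) over liver_C and -0.58 ± 0.15 (SE, adjusted p = 0.0154) over blood. Both calls were lost without thymus replicate 1 or with replicate 1 of the other organ left out (adjusted p = 0.0579 to 0.1). Trim30d, a TRIM protein next to Trim30a on chromosome 7, had 308, 246 and 356 normalized reads in thymus, 441, 463 and 398 in spleen and 478, 391 and 461 in liver_C. For Trim30d the log2 fold change was -0.53 ± 0.16 (SE, adjusted p = 0.0328) over spleen and -0.56 ± 0.16 (SE, adjusted p = 0.0265) over liver_C. Both calls were lost without thymus replicate 2, over spleen also without thymus replicate 1 or spleen replicate 1 or 2, and over liver_C also without liver_C replicate 1 or 3 (adjusted p = 0.0578 to 0.169). The call over spleen was also lost with the range of library numbers as a block (adjusted p = 0.0533).

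**Figure D3:**
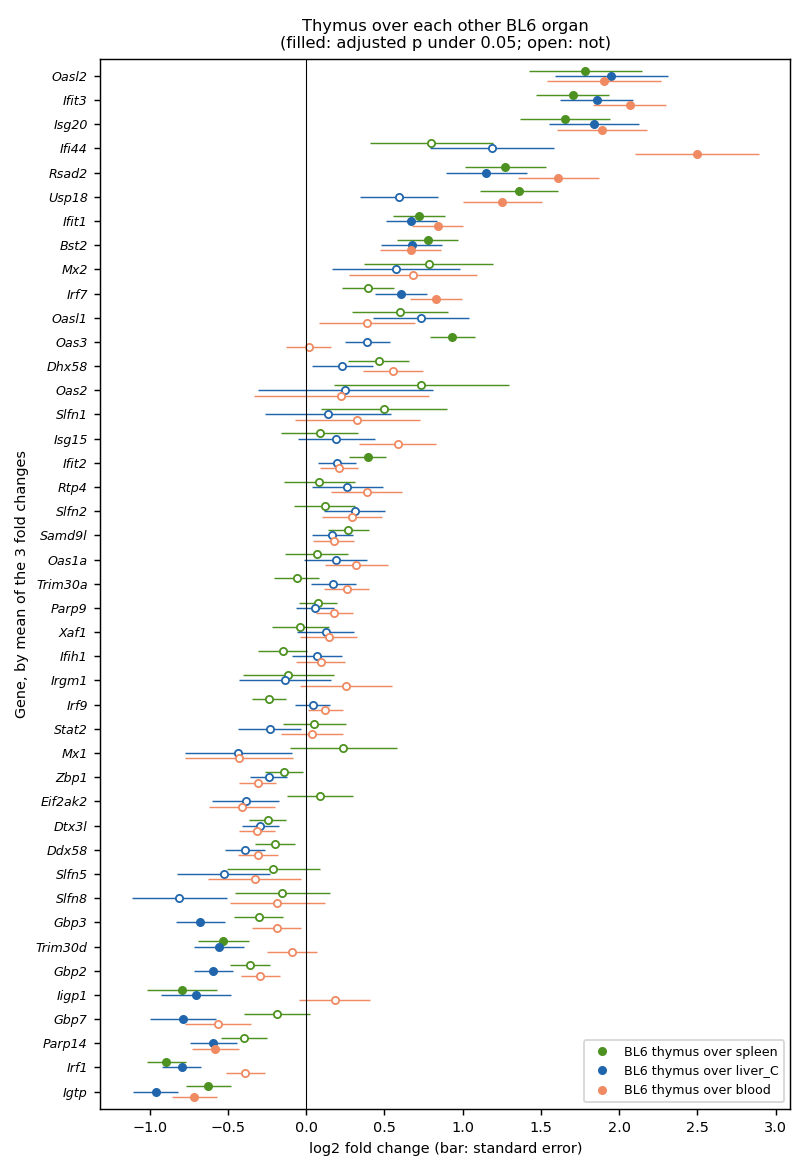
Log2 fold change of each of the 43 members in BL6 thymus over spleen, over liver_C and over blood (points, bars are standard errors, filled points have an adjusted p under 0.05), with genes ordered by the mean of the 3 values. Ifit3, Oasl2 and Isg20 stand near the top with fold changes of 1.65 to 2.07, and Igtp near the bottom with -0.62 to -0.96.

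Some members that were not called in thymus are given for the size of their spread. The sensor Ddx58, which encodes the RNA helicase RIG-I, had 1028, 1283 and 1126 normalized reads in thymus, 1480.3, 1308 and 1460.3 in blood, 1556, 1188 and 1207 in spleen and 1691, 1368 and 1442 in liver_C. These overlapped between spleen and both thymus and blood, and the log2 fold change in thymus was -0.20 ± 0.13 (SE, adjusted p = 0.39) over spleen and -0.39 ± 0.13 (SE, adjusted p = 0.0528) over liver_C. Mx1, a dynamin-like antiviral GTPase, had 75.8, 143 and 245 normalized reads in thymus and 281, 191 and 123 in liver_C, a wide and overlapping spread. Samd9l, a cytoplasmic restriction factor, had 955, 1058 and 1054 normalized reads in thymus and 942, 781 and 826 in spleen, and Dtx3l had 2486, 2632 and 3075 in thymus and 3322, 3298 and 3068 in spleen. Trim30a had 1427, 1498 and 2025 normalized reads in thymus and 1508, 1965 and 1657 in spleen, and Slfn5, of the Schlafen family of growth regulators and restriction factors, had 125, 283 and 326 in thymus and 385, 237 and 197 in spleen, overlapping in both cases.

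Between the peripheral organs few members were called. Blood over spleen gave 4 of 43 calls, 1 higher and 3 lower, against 4.22% of all genes tested (2.96% higher, 1.26% lower). Oas3 was higher, with the values above, and Ifi44, Iigp1 and Irf1 were lower. Fold changes on the log2 scale were -0.98 ± 0.22 (SE, adjusted p = 0.0159) for Iigp1 and -0.50 ± 0.13 (SE, adjusted p = 0.026) for Irf1. The count was 1 without spleen replicate 2 and 2 without spleen replicate 3 or blood replicate 3. Oas3 was called under every alternative. Ifi44 was lost without blood replicate 3 or spleen replicate 2 or 3, Iigp1 without blood replicate 3 or spleen replicate 2, and Irf1 without blood replicate 1 or 2 or spleen replicate 2 or 3 (adjusted p = 0.0521 to 0.105).

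Blood over liver_C gave 0 of 43 calls by limma, with 8 members at an unadjusted p under 0.05, 0 calls by edgeR and 1 by DESeq2, and 0.265% of all genes tested were called. The member with the lowest adjusted p was Iigp1, at -0.89 ± 0.22 (SE, adjusted p = 0.125). Spleen over liver_C gave 0 of 43 calls by limma, with 8 members at an unadjusted p under 0.05, 0 calls by edgeR and 1 by DESeq2, against 2.32% of all genes tested. Oas3 came nearest, at -0.54 ± 0.14 (SE, adjusted p = 0.055), and its 480.2, 444 and 493 normalized reads in spleen lay under all 3 liver_C libraries.

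The strain comparison was made in liver, where Trim30d separated the mice completely. Trim30d (ENSMUSG00000057596, chr7:104470014-104507849) had no read in any of the 3 BALB/c liver_H libraries, against 408, 364 and 460.3 normalized reads in BL6 liver_H, which is at least 311-fold lower with a floor of 3 reads over the group. In liver_C it had 2.98 and 4.11 normalized reads in BALB/c and 478, 391 and 461 in BL6. Trim30a, its neighbour with the same ISRE letters, had 1380.9, 1493 and 1168 normalized reads in BALB/c liver_H and 1461, 1956 and 1609.5 in BL6 liver_H, an overlapping range that was not called (log2 fold change -0.31 ± 0.15 SE, adjusted p = 0.347). BALB/c reads were placed on a C57BL/6 reference, reads may be shared between the Trim30 genes, and the part of either in this difference was not tested. The ISRE letters are also those of the reference, and the BALB/c promoters were not read.

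Oasl2 and Oasl1 were the next members by size. Oasl2 had 8.49, 3.16 and 0 normalized reads in BALB/c liver_H and 97.5, 117 and 73.1 in BL6 liver_H, and 0 and 3.65 in BALB/c liver_C and 62.2, 34.1 and 86.9 in BL6 liver_C. The BALB/c libraries held 8 reads of it in all in liver_H and 8 in liver_C, which limits its precision. The change of BALB/c over BL6 was -4.81 ± 0.82 (SE, adjusted p = 0.00338) in liver_H and -4.75 ± 0.91 (SE, adjusted p = 0.0106) in liver_C, on a log2 scale that depends on the added count at such low values. Oasl1 (chr5:114923240-114937915) had 25.5, 25.3 and 31.1 normalized reads in BALB/c liver_H and 143, 189 and 111 in BL6 liver_H, and 22.3 and 24.2 in BALB/c liver_C and 96.8, 62.0 and 98.8 in BL6 liver_C. Neither preparation showed an overlap, and the log2 fold change was -2.37 ± 0.33 (SE, adjusted p = 0.000692) in liver_H and -1.81 ± 0.37 (SE, adjusted p = 0.0161) in liver_C. In liver_C, Oasl2 was lost without BALB/c replicate 1 or BL6 replicate 3 (adjusted p = 0.0658 to 0.159) and Oasl1 without BALB/c replicate 1 or BL6 replicate 1 or 3 (adjusted p = 0.0816 to 0.123). Both were also lost with the range of library numbers as a block (adjusted p = 0.0919 for Oasl2 and 0.146 for Oasl1).

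All 3 IFIT genes were called lower in BALB/c liver_H, and in liver_C Ifit3 was the 1 of 3 called. Ifit3 had 77.8, 67.9 and 86.8 normalized reads in BALB/c liver_H and 165, 266 and 187 in BL6 liver_H, and 101 and 97.6 in BALB/c liver_C and 194, 199 and 252 in BL6 liver_C. Every BALB/c library was under every BL6 library, with a log2 fold change of -1.38 ± 0.24 (SE, adjusted p = 0.00412) in liver_H and -1.09 ± 0.27 (SE, adjusted p = 0.05) in liver_C. The second was at the threshold and was lost without any 1 of the 5 libraries (adjusted p = 0.098 to 0.253), with the block (adjusted p = 0.566), without the filter and with a pseudocount of 0.5 or 10. Ifit1 had 239, 219.6 and 178 normalized reads in BALB/c liver_H and 423, 567 and 431 in BL6 liver_H, a log2 fold change of -1.15 ± 0.22 (SE, adjusted p = 0.00873). Ifit2 had 553, 611 and 599 in BALB/c liver_H and 924, 863 and 802 in BL6 liver_H, a log2 fold change of -0.55 ± 0.14 (SE, adjusted p = 0.0446). The call of Ifit1 was lost without BL6 liver_H replicate 2 (adjusted p = 0.0595) and that of Ifit2 without any 1 of the 6 libraries (adjusted p = 0.0617 to 0.173).

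Rsad2 was called in liver_C and not in liver_H. It had 13.4 and 44.3 normalized reads in BALB/c liver_C and 117, 185 and 146 in BL6 liver_C (log2 fold change -2.53 ± 0.57 SE, adjusted p = 0.0311), and 119, 26.9 and 46.1 in BALB/c liver_H and 149, 199.99 and 128 in BL6 liver_H (log2 fold change -1.54 ± 0.51 SE, adjusted p = 0.138). The call in liver_C was lost by edgeR and without BALB/c replicate 1 or any 1 BL6 library (adjusted p = 0.0625 to 0.429), and with the block (adjusted p = 0.442). Dhx58, the RNA helicase LGP2, had 110.4, 129.5 and 87.9 normalized reads in BALB/c liver_H and 255, 326 and 212 in BL6 liver_H, without overlap (log2 fold change -1.26 ± 0.25 SE, adjusted p = 0.00909), and lost its call without BL6 liver_H replicate 2 (adjusted p = 0.06). Oas3 had 469.7, 629 and 627 normalized reads in BALB/c liver_H and 1079.5, 1149 and 869.7 in BL6 liver_H, also without overlap (log2 fold change -0.85 ± 0.18 SE, adjusted p = 0.0188), and lost its call without BALB/c replicate 1 or BL6 replicate 1 or 2 (adjusted p = 0.0766 to 0.104).

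Mx2 and Gbp3 went the other way. Mx2, a dynamin-like antiviral GTPase of the cytoplasm in mice, had 112, 163 and 196 normalized reads in BALB/c liver_H and 49.3, 61.7 and 68.6 in BL6 liver_H, and 143 and 92.2 in BALB/c liver_C and 78.1, 47.6 and 50.3 in BL6 liver_C. All BALB/c libraries of Mx2 were above all BL6 liver libraries, and the log2 fold change was 1.35 ± 0.32 (SE, adjusted p = 0.0329) in liver_H and 0.99 ± 0.36 (SE, adjusted p = 0.278) in liver_C, where it was not called. Gbp3 (chr3:142560026-142573209) had 1012, 1469 and 1349 normalized reads in BALB/c liver_H and 698, 665 and 945 in BL6 liver_H (log2 fold change 0.73 ± 0.17 SE, adjusted p = 0.0324). The call of Mx2 was lost without BALB/c replicate 2 or 3 or any 1 BL6 liver_H library, and that of Gbp3 without BALB/c replicate 2 or 3 or BL6 replicate 1 or 2 (adjusted p = 0.0636 to 0.15). Ifi44 had 188, 120.1 and 36.5 normalized reads in BALB/c liver_H and 34.6, 19.5 and 20.9 in BL6 liver_H, with a wide spread in BALB/c, and was not called (log2 fold change 1.91 ± 0.51 SE, adjusted p = 0.0611).

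**Figure D4:**
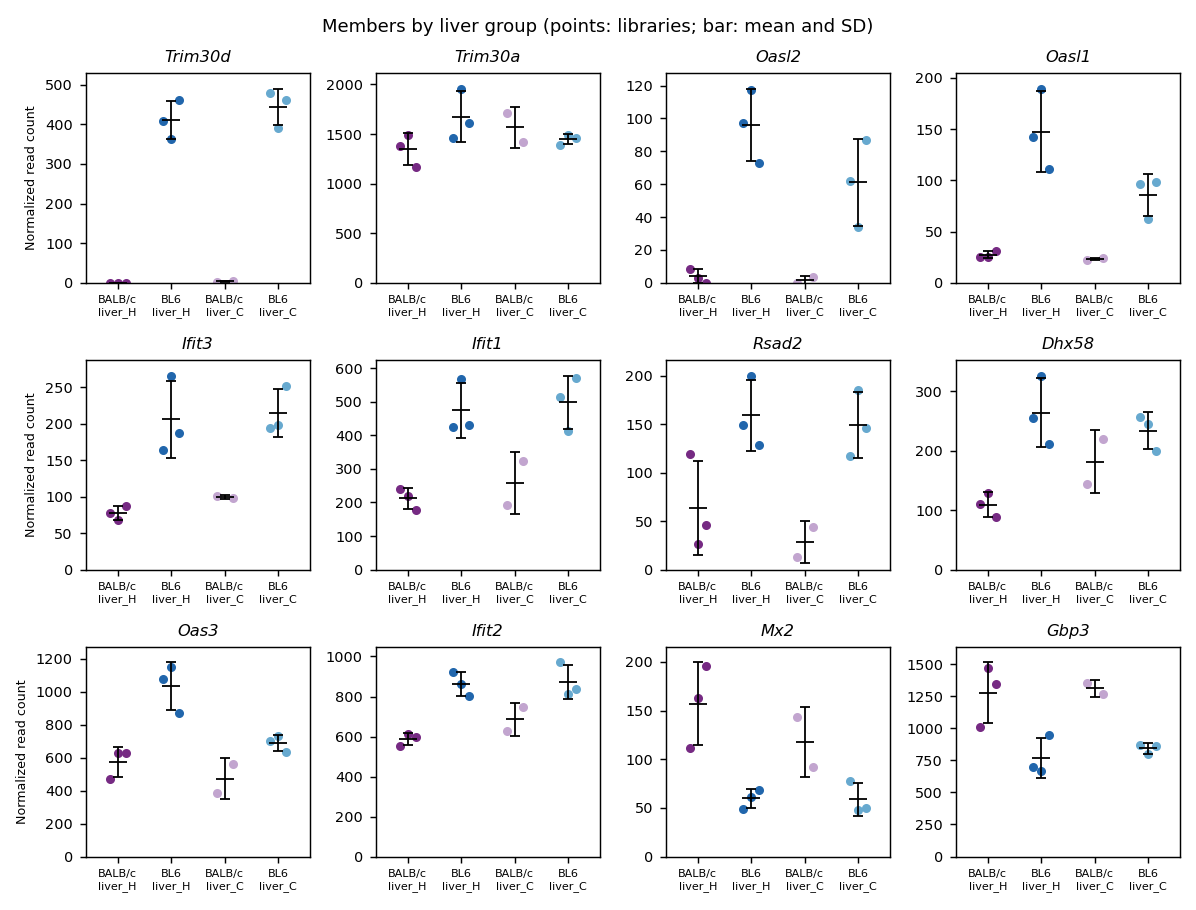
Normalized read counts of 12 members in BALB/c and BL6 liver_H and in BALB/c and BL6 liver_C (points are libraries, the bar and whiskers are mean and SD, 3 libraries a group and 2 in BALB/c liver_C). Trim30d, Oasl2, Oasl1 and Ifit3 are lower in every BALB/c library, Mx2 is higher in every BALB/c library, and Trim30a overlaps.

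In counts, BALB/c over BL6 in liver_H gave 10 of 43 calls, 2 higher and 8 lower, against 3.71% of all genes tested (1.8% higher, 1.91% lower). BALB/c over BL6 in liver_C gave 5 of 43 calls, 0 higher and 5 lower, against 2.58% (1.17% higher, 1.41% lower). Both counts hold Trim30d and Oasl2, which passed the filter on low values through BL6 libraries only. The count in liver_H was 4 without BL6 liver_H replicate 2 and 6 without replicate 1. In liver_C it was 1 without BALB/c replicate 1 or BL6 replicate 3, 3 without BL6 replicate 1 or 2, and 1 with the range of library numbers as a block. The libraries of the 2 strains did not overlap for 23 members in liver_H and 23 in liver_C, against 20.4% and 24.9% of all genes tested. The median log2 fold change of the members was -0.39 in liver_H and -0.31 in liver_C, against -0.002 and -0.003 over all genes tested. A test of the difference between the strain effects in liver_H and liver_C called 0 members by limma, with 2 at an unadjusted p under 0.05, and 0 of the 13202 genes tested. Of the markers of other cells, Ighm in both preparations and Cd74 in liver_C, both on the list of B and plasma cell genes (7 tested), were called lower in BALB/c, as was Klrb1c of the 11 tested iNKT1 markers in both preparations. Their part in the strain results was not tested. None of the 7 tested markers of double-positive thymocytes and none of the 4 tested markers of plasmacytoid dendritic cells was called between the strains. By the labels, every BALB/c liver_H library came from fewer sorted cells than any BL6 liver_H library. The 6 most read genes took 27.23% to 50.9% of reads in BALB/c liver_H and 28.0% to 41.3% in BL6 liver_H. The part of cell number and of this share in the strain results was not tested.

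No member was called between digestion at 37 °C and cold preparation in BL6 mice. Since these 2 groups share only range 2 of the library numbers, preparation and range could not be fully told apart. BL6 liver_H over liver_C gave 0 of 43 calls by limma, with 4 members at an unadjusted p under 0.05 and 0 calls by edgeR and by DESeq2, and 0.477% of all genes tested were called. Oas3 had 1079.5, 1149 and 869.7 normalized reads in liver_H and 700.4, 732 and 636 in liver_C, no overlap and a log2 fold change of 0.57 ± 0.18 (SE, adjusted p = 0.278). Usp18 had 209, 241 and 195 normalized reads in liver_H and 341, 361 and 264 in liver_C, no overlap and a log2 fold change of -0.58 ± 0.19 (SE, adjusted p = 0.311). The median log2 fold change of the members was 0.11, against 0.01 over all genes tested.

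In BALB/c mice, liver_H over liver_C gave 1 of 43 calls, Trim30d, against 0.273% of all genes tested. Trim30d was at 0 reads in liver_H and held 2 and 9 reads in liver_C, which is at least 2.68-fold lower in liver_H with the floor of 3 reads over the group. That bound leaves out the counting error of the few liver_C reads. The call was lost by edgeR and DESeq2 and without liver_H replicate 2 or liver_C replicate 2 (adjusted p = 0.0518 to 0.0872), and with the block (adjusted p = 0.0561). Dhx58 had 110.4, 129.5 and 87.9 normalized reads in BALB/c liver_H and 144 and 219 in BALB/c liver_C, without overlap (log2 fold change -0.72 ± 0.27 SE, adjusted p = 0.483). Gbp7 had 809, 1148 and 2301 normalized reads in BALB/c liver_H and 505 and 2347 in BALB/c liver_C. Within each of these groups the libraries of the second range of numbers were the high ones for Gbp7.

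The genes of the interferon pathway itself, 60 on the list and 36 tested, were called lower more often than higher in thymus, and most of those tested were not called. Calls were made for 14 genes in thymus over spleen (3 higher, 11 lower), 15 over liver_C (3 higher, 12 lower) and 11 over blood (2 higher, 9 lower), against the same 13.4%, 12.5% and 10.5%. Among ligands, Ifng had 30.3, 25.6 and 40.9 normalized reads in thymus, 75.8, 70.1 and 144 in blood, 77.0, 64.2 and 108 in spleen and 187, 175 and 214 in liver_C, the lowest in thymus. Ifng had a log2 fold change of -1.33 ± 0.31 (SE, adjusted p = 0.00573) in thymus over spleen, -2.55 ± 0.31 (SE, adjusted p = 9.62e-06) in thymus over liver_C and -1.22 ± 0.31 (SE, adjusted p = 0.0415) in spleen over liver_C. The first of these is outside the naming rule and was chosen after its values were seen. In liver_H Ifng had 550.4, 499 and 1013 normalized reads in BALB/c and 552, 341 and 749.6 in BL6, and the log2 fold change of liver_H over liver_C was 1.44 ± 0.31 (SE, adjusted p = 0.0661) in BL6, not past the threshold. The gene of interferon-β, Ifnb1, was listed at 0 in all 20 libraries.

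Among receptors, Ifngr1 had 5389.9, 4668 and 6069.8 normalized reads in thymus, 4254, 3935 and 4297 in blood, 2484, 2128 and 2575 in spleen and 3895, 4759 and 5101 in liver_C, with spleen below all other organs. On the log2 scale it differed by 1.16 ± 0.14 (SE, adjusted p = 1.17e-05) in thymus over spleen, 0.80 ± 0.14 (SE, adjusted p = 0.00308) in blood over spleen and -0.93 ± 0.14 (SE, adjusted p = 0.000818) in spleen over liver_C. Between the strains it was the 1 gene called of the 36 tested pathway genes. It had 1882, 2122 and 2129 normalized reads in BALB/c liver_H and 5249.7, 4385 and 3550.0 in BL6 liver_H (log2 fold change -1.09 ± 0.18 SE, adjusted p = 0.00282), and 2555 and 1808 in BALB/c liver_C and 3895, 4759 and 5101 in BL6 liver_C (log2 fold change -1.08 ± 0.20 SE, adjusted p = 0.00861). Ifngr2, the other chain of that receptor, had 34.1, 90.5 and 60.8 normalized reads in thymus, 32.8, 35.8 and 30.5 in spleen and 3.30, 0 and 3.41 in liver_C, where it was at a few reads at most. Ifnar1 was not called in any comparison. Ifnar2, the other chain of the type I receptor, had 481, 459 and 445 normalized reads in thymus and 632, 651 and 540 in blood. It had 522, 459 and 504 in spleen and 625, 600 and 688 in BL6 liver_C, and was added after its values were seen. Of the 5 receptor genes tested, thymus over liver_C gave 1 higher and 2 lower, thymus over blood 0 higher and 2 lower, and thymus over spleen 1 higher and 0 lower.

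Among signal transducers, Jak2 and Stat4, the second being the transducer of interleukin-12, fell in thymus. The change of Jak2, on the log2 scale, was -1.39 ± 0.14 (SE, adjusted p = 9.96e-07) over spleen, -1.0 ± 0.14 (SE, adjusted p = 5.29e-05) over liver_C and -0.87 ± 0.14 (SE, adjusted p = 0.000365) over blood. For Stat4 it was -1.20 ± 0.17 (SE, adjusted p = 4.66e-05) over spleen, -1.62 ± 0.17 (SE, adjusted p = 1.26e-06) over liver_C and -1.43 ± 0.17 (SE, adjusted p = 8.33e-06) over blood. Stat2 and Irf9, which are members, were not called in any comparison. Of the regulators, the phosphatase gene Ptpn6 had 5094, 4903 and 5058 normalized reads in thymus, 2246, 2837 and 2580.4 in blood, 1807, 1916 and 1648 in spleen and 3469, 2948 and 3289 in liver_C, highest in thymus, which over spleen gives a log2 fold change of 1.49 ± 0.12 (SE, adjusted p = 4.72e-08). Socs3, a feedback inhibitor, fell in thymus over liver_C (log2 fold change -1.45 ± 0.20 SE, adjusted p = 5.35e-05). Tlr7, a sensor of single-stranded RNA, had 255, 197 and 332 normalized reads in thymus and 42.9, 65.1 and 49.4 in liver_C (log2 fold change 2.28 ± 0.38 SE, adjusted p = 0.000292).

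**Figure D5:**
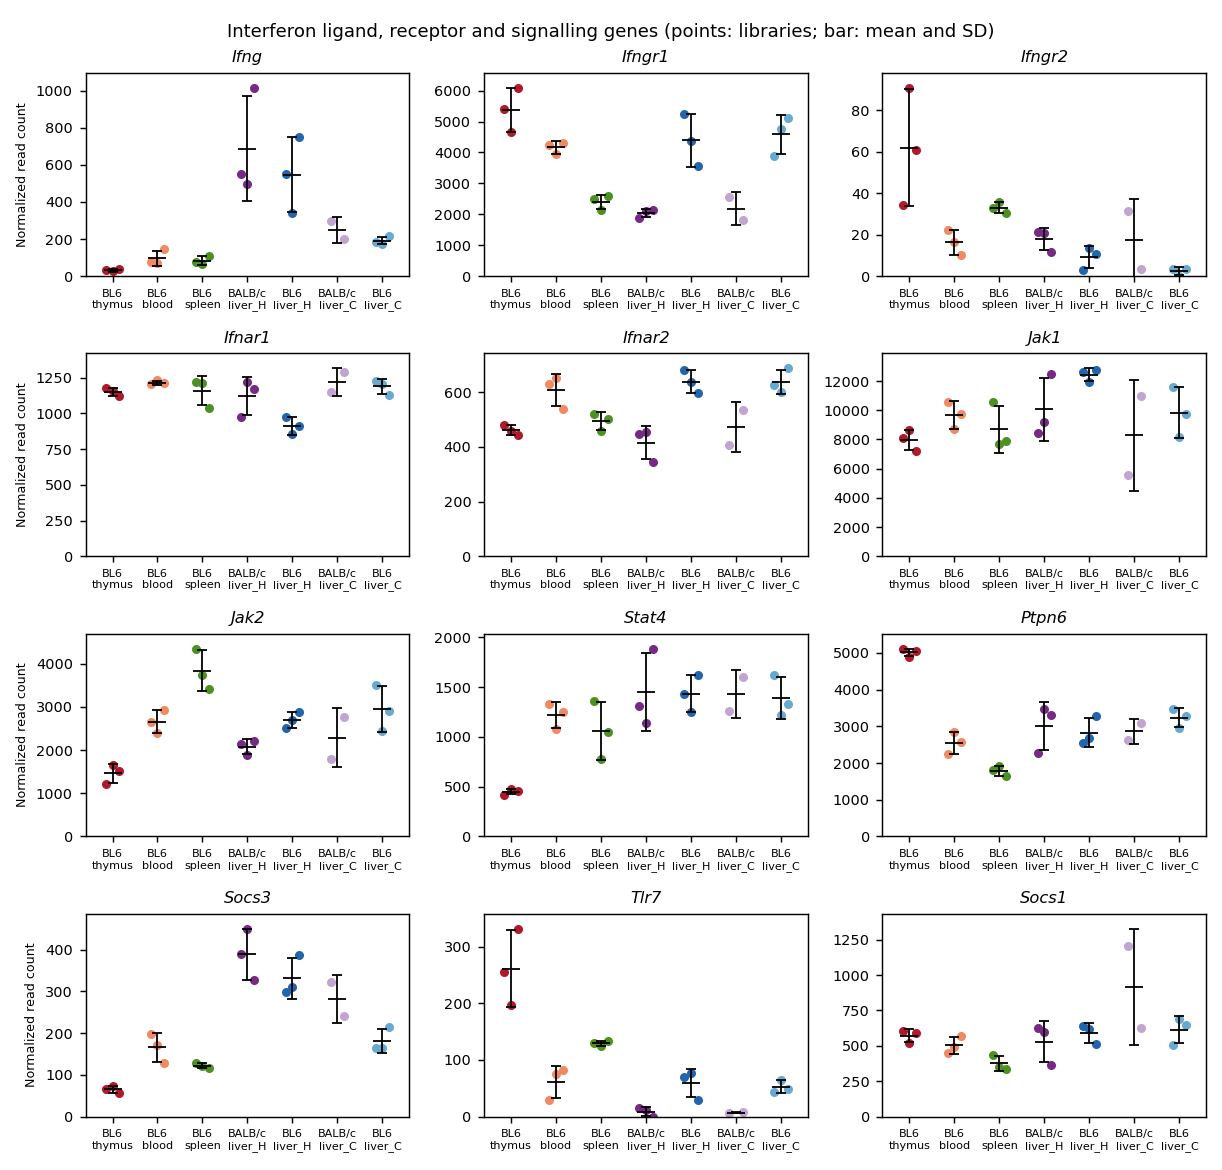
Normalized read counts of 12 genes of the interferon pathway in the 7 groups (points are libraries, the bar and whiskers are mean and SD, 3 libraries a group and 2 in BALB/c liver_C). Ifng is lowest in thymus, Ifngr1 is lower in BALB/c liver than in BL6 liver, and Ifnar1 varies little between groups.

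The members did not vary as 1 block from library to library. After the group mean of each gene was taken off, the median correlation over the 903 pairs of members was 0.12 across the 20 libraries. These libraries differ in depth and in range of numbers, whose part in the correlations was not tested. The closest pairs were Parp14 with Gbp7 (r = 0.91), Rtp4 with Trim30a (r = 0.86) and Eif2ak2, the RNA-activated kinase PKR, with Gbp7 (r = 0.83). Ifit1 and Ifit3, close neighbours on chromosome 19, had r = 0.44, and Parp9 and Dtx3l, which share a promoter region on opposite strands, had r = 0.35.

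Over the 10 comparisons between groups, 22 of the 43 members were called at least once and 21 in none. The 21 were the sensors Ddx58, Ifih1, Zbp1 and Eif2ak2, the factors Irf9 and Stat2, Isg15, Oas1a, Oas2, Mx1, the effectors Rtp4, Samd9l and Xaf1, Parp9, Dtx3l, Trim30a, the 4 Schlafen genes and Irgm1. Among those not described above, Zbp1, a sensor of Z-form nucleic acid, ran over 838 to 1493 normalized reads in the 20 libraries, Ifih1, which encodes the RNA helicase MDA5, over 261 to 572, and Rtp4 over 351 to 846. Parp9, the partner of Dtx3l, stayed within 658 to 1015 normalized reads, whereas Eif2ak2 spanned 79.0 to 490.2 and Slfn5 125 to 462. Irf9 reached 1686 normalized reads, but part of its exons overlaps those of Rnf31 on the same strand, and Parp9 and Dtx3l overlap on opposite strands.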

How the data were processed

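Total RNA went into a SMARTer stranded pico-input kit, and reads were single, 75 bases long. The authors trimmed reads with Trim Galore 0.4.4, aligned them with STAR 2.5.3a to GRCm38.p6, counted genes of GENCODE M17 with featureCounts 1.6.1 and divided the counts by DESeq2 size factors. The strand setting of the counting is not given in the sources used here. The deposited values are therefore a signal, normalized read counts per gene. Between 99.993% and 99.998% of the values of a library were whole reads within 0.05 once divided by the value of 1 read. The table also holds the authors' own fold changes, p-values and a mean over libraries, which were not used, and 1 emptied line was left out.

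Genes that reached 10 normalized reads in 3 or more libraries of a fit were tested with limma 3.58.1 (trend, R 4.3.3) on log2(value + 1), so fold changes of low genes are understated. The 15 BL6 libraries formed 1 fit for organs (13604 genes) and the 11 liver libraries another for strain and preparation (13202 genes). All 43 members passed the filter in both. In the liver fit, Trim30d and Oasl2 passed it through BL6 libraries only, the strain in which they were higher. P-values were adjusted by Benjamini-Hochberg over all genes tested, a gene being called at an adjusted p under 0.05. The scripts were tested on simulated data. Alternatives were edgeR 4.0.16 and DESeq2 1.42.0 on recovered reads, quantile normalization, other pseudocounts (0.5 and 10), no filter, all 20 libraries in 1 fit, the range of library numbers as a block, and leaving out each library. No 2 libraries of a group agreed within sampling noise. The members, lists and tests were chosen with earlier results of these data known. Named were every called member, up to the 8 largest changes per direction, the highest member of each role and, of other lists, up to 4 called genes per direction with the smallest adjusted p. Of the pathway genes, 1 is not reported here. The sequences are RefSeq promoter windows on GRCm38.p6. Floors (3 reads) cover counting error only.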

Additional observations from a re-analysis of the deposited data

How the results depend on the processing

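Of the 820 values that the alternatives gave for the 59 member calls, 696 kept their direction and their side of the threshold, 124 kept their direction but not the threshold and 0 changed direction. 27 calls held under every alternative. With all 20 libraries in 1 fit, the count of called members was 8 for thymus over liver_C, 11 for the F test over 4 organs and 8 for BALB/c over BL6 in liver_C. With the range of library numbers as a block it was 2 for spleen over liver_C and 1 for BALB/c over BL6 in liver_C. DESeq2 on recovered reads called 1 member for blood over liver_C, 1 for spleen over liver_C and 8 for BALB/c over BL6 in liver_C. For BALB/c liver_H over liver_C the count was 0 with quantile normalization, no filter, a pseudocount of 10, the block, edgeR and DESeq2. The fit of all 20 libraries also ended calls of Oasl2, Rsad2, Trim30d, Bst2, Parp14, Gbp7 and Iigp1 in thymus, Ifi44 in blood over spleen and Mx2 in BALB/c liver_H, and testing without the filter ended calls of Ifit2, Trim30d, Iigp1 and Bst2 in thymus, Irf1 in blood over spleen, and Ifit2 and Gbp3 in BALB/c liver_H and Ifit3 in BALB/c liver_C. The causes were not tested. Leaving out 1 library gave 10 to 12 calls for thymus over spleen, 10 to 15 over liver_C and 10 to 11 over blood, 1 to 4 for blood over spleen, 0 to 1 for blood over liver_C, 0 to 1 for spleen over liver_C, 0 to 1 for BALB/c liver_H over liver_C, 1 to 6 for BALB/c over BL6 in liver_C, 4 to 10 in liver_H and 14 to 18 for the F test. Without 1 of the 2 BALB/c liver_C libraries, the lone library is assumed to vary like the other groups. No scaling moved the median of all genes by over 0.1 on the log2 scale. No paired analysis was possible because the labels give no replicate numbers and neither they nor the methods say which libraries share mice or livers, so the range of library numbers was the 1 block tried. With 2 or 3 libraries a group, members at a few reads, such as Oasl2 in BALB/c liver, are limited by depth.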

Other observations

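Of a list of 90 other interferon-stimulated genes, not among the 43, 89 were found and 77 were tested in the fit of BL6 organs. In thymus over spleen 23 were called (9 higher, 14 lower), against 13.4% of all genes tested (7.71% higher, 5.73% lower). Over liver_C 19 were called (4 higher, 15 lower), against 12.5% (6.2% higher, 6.27% lower). Over blood 14 were called (3 higher, 11 lower), against 10.5% (5.05% higher, 5.43% lower). Ifit3b, the close copy of Ifit3, had 291, 327 and 402 normalized reads in thymus, 83.5, 76.2 and 106 in blood, 90.1, 112 and 88.6 in spleen and 70.4, 91.0 and 121 in BL6 liver_C, with the thymus libraries above all others and a log2 fold change of 1.79 ± 0.26 (SE, adjusted p = 6.37e-05) over spleen. Cmpk2, a mitochondrial nucleotide kinase next to Rsad2, had 226, 272 and 409 in thymus and 67.2, 86.4 and 73.8 in spleen, a log2 fold change of 1.95 ± 0.28 (SE, adjusted p = 7.52e-05). Among the genes that fell, Gbp10 had 29.1, 43.9 and 37.8 normalized reads in thymus and 184, 162 and 204 in spleen (log2 fold change -2.29 ± 0.32 SE, adjusted p = 4.12e-05), and Gbp5 had 399, 357 and 433 and 974, 848 and 809.8 (log2 fold change -1.14 ± 0.15 SE, adjusted p = 1.86e-05). Epsti1 had a log2 fold change of -0.99 ± 0.12 (SE, adjusted p = 9.23e-06) in thymus over liver_C.

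Between the strains, 76 of these genes were tested. In liver_H 17 were called (4 higher, 13 lower in BALB/c), against 3.71% of all genes tested (1.8% higher, 1.91% lower). In liver_C 13 were called (0 higher, 13 lower), against 2.58% (1.17% higher, 1.41% lower). Ly6a, which encodes Sca-1, had 82.1, 61.6 and 45.0 normalized reads in BALB/c liver_H and 953, 938 and 882 in BL6 liver_H, a log2 fold change of -3.90 ± 0.22 (SE, adjusted p = 1.25e-07). Apobec3, a cytidine deaminase that restricts retroviruses, had 317, 251 and 314 in BALB/c liver_H and 1775, 1649.6 and 1837 in BL6 liver_H (log2 fold change -2.58 ± 0.15 SE, adjusted p = 1.47e-07). Ifi214, a nucleic acid sensor family gene, was higher, with 712, 600.3 and 833 in BALB/c liver_H and 306, 349 and 363 in BL6 liver_H (log2 fold change 1.06 ± 0.17 SE, adjusted p = 0.00182). All BALB/c libraries of Ly6a and Apobec3 were under, and those of Ifi214 above, every BL6 library of the same preparation, and the part of the C57BL/6 reference in these values was not tested.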
